A study of Mus musculus with 14 samples.

Results

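The Id family (Id1, Id2, Id3 and Id4, inhibitors of DNA binding) was followed across WT and Smad4 IEC-KO colon epithelium, on water and after dextran sulfate sodium (DSS). Its 4 members were found by symbol among the 37680 genes of the count table, and all 4 had counts in every library. Id1 and Id3 carried the main difference between genotypes. After DSS, Id1 was at 36.4% and Id3 at 7.56% of the WT level in the Smad4 KO epithelium, Id2 was at 49.0%, and Id4 showed no detectable difference. On water, Id1 was at 36.3% and Id3 at 17.8% of WT over all KO libraries without passing the test. Once a library whose Smad4 level goes against its label was left out, they were at 20.0% and 2.22%, both passing.

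RNA was taken from colonic crypt epithelium of adult mice, which had been released from the mesenchyme with EDTA and passed through a filter. Poly(A) libraries were sequenced. Groups were WT on water (labelled Wildtype and untreated, n = 4), Smad4 KO on water (n = 4), WT given 2.5% DSS with the drinking water for 3 d (n = 3), and Smad4 KO given the same (n = 3). The figure legends of the paper give n = 3 for Smad4 KO on water and do not say which libraries were used. In the Smad4 KO mice (Villin-CreERT2; Smad4 f/f), a Cre recombinase driven by the villin promoter and induced by tamoxifen deletes Smad4 in the intestinal epithelium and not in the mesenchyme. DSS is a sulfated polysaccharide that damages the colonic mucosa. Labels number the libraries as replicates but do not tie them to mice, so that p-values measure the spread between these libraries.

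Id proteins are helix-loop-helix proteins without a basic region. They bind E proteins, the broadly expressed bHLH factors that pair with tissue-specific bHLH factors, and keep them off DNA. BMP ligands act through receptor kinases that phosphorylate SMAD1, SMAD5 and SMAD9, which join SMAD4 on the regulatory DNA of Id genes, and Id1 and Id3 are among the most widely used readouts of this pathway. In the intestine, BMP signaling is stronger toward the crypt top and the surface than at the crypt base.

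In the NCBIM37 (mm9) annotation of GENCODE M1, Id1 (ENSMUSG00000042745) lies on chromosome 2 from 152561987 to 152563146 on the plus strand. Id2 (ENSMUSG00000020644) is on chromosome 12 from 25778666 to 25780957 on the minus strand. Id3 (ENSMUSG00000007872) is on chromosome 4 from 135699412 to 135701670 on the plus strand, and Id4 (ENSMUSG00000021379) on chromosome 13 from 48356796 to 48359405 on the plus strand. All are protein coding. Only Id4 shares its span with another annotated gene, the antisense transcript A330033J07Rik, which had 19 counts over all 14 libraries against 1184 for Id4. Whether reads were counted by strand is not given in the sources used here.

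The sequence just upstream of the starts of the members is shown, from the RefSeq promoter table (GRCm38.p6, a later build than the gene positions above). Promoters of Id2, Id3 and Id4, but not of Id1, were found there. Each is printed as the 250 bases before the annotated start, 5′ to 3′ on the strand of the gene. Capitals mark 2 kinds of letters that SMAD complexes are known to bind, the GC-rich GGCGCC and the SMAD-binding GTCTG or its reverse complement CAGAC.
Id2, chr12:25096093-25096342, minus strand: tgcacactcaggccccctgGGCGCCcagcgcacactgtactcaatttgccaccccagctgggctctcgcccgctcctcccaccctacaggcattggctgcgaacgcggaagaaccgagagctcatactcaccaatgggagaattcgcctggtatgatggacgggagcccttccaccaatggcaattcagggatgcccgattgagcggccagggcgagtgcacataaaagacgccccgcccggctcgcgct
Id3, chr4:136143572-136143821, plus strand: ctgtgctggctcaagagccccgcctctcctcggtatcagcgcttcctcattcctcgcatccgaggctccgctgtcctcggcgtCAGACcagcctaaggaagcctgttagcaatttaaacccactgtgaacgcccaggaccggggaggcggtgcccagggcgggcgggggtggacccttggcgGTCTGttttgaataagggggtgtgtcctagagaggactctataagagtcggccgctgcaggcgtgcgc
Id4, chr13:48260866-48261115, plus strand: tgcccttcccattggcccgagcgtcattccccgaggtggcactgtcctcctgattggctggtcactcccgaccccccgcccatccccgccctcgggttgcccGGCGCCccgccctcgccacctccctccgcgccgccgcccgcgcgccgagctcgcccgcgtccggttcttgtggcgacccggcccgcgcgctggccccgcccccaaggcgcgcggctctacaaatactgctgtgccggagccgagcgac
GGCGCC occurred once in the Id2 window, starting 231 bases before the start, and once in the Id4 window, 148 bases before it. CAGAC and GTCTG occurred once each in the Id3 window, 167 and 68 bases before the start. Over the 32851 promoter windows of the same length, searched on both strands, 9.59% held GGCGCC and 42.2% held GTCTG or CAGAC. The composite of GGCGCC, any 5 bases and GTCT, whose last letters can overlap a GTCTG, was in 0.0700% of windows and in none of the 3. These matches describe letters only.

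Between 12882827 and 26087231 counts were assigned to genes in a library. Levels are given as CPM, counts relative to the library total after TMM scaling in edgeR. Id1 had 803 to 10252 counts per library, Id2 81 to 515, Id3 4 to 3072 and Id4 25 to 145, so that Id4 and the lowest Id3 values are the least precise. Mitochondrial genes held 30.6% and 32.8% of the counts in WT water 3 and 4, 21.4% in KO water 4 and 4.05% to 8.23% in the other libraries. Epithelial markers (Epcam, Cdh1, Krt8, Krt18, Krt19 and Vil1) summed to 10948 to 17985 CPM in every library. Endothelial markers, from cells in which Id1 and Id3 are also BMP targets, summed to 1.28 to 4.01 CPM in every library, and Tie1 and Cldn5 were at 0 in all of them.

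Smad4, the deleted gene, was at 122, 159, 135 and 118 CPM in WT water 1 to 4, and at 158, 37.0, 46.8 and 35.1 CPM in KO water 1 to 4. After DSS it was at 170, 182 and 174 CPM in WT and 43.9, 40.4 and 42.8 CPM in KO. In its Smad4 level the library labelled KO water 1 therefore lay within the WT range and went against its label. Comparisons of the members that use it are given with and without it. After DSS, Smad4 was at 24.2% of WT (log2 fold change -2.05 ± 0.09 (SE), edgeR adjusted p = 2.04e-06, and 0.313 in 1 model of all 14 libraries).

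Per kilobase of annotated exon, Id1 was the most abundant member in all 14 libraries. Its level was 305 ± 64.2 (SD, n = 4) CPM per kb in WT on water, against 53.6 ± 13.5 for Id3, 11.8 ± 3.14 for Id2 and 1.97 ± 0.27 for Id4 (SD, n = 4). In WT libraries Id1 made up 79.1% to 85.7% of the summed Id level per kb, and Id3 10.3% to 16.5%. In the Smad4 KO libraries other than the one labelled KO water 1, Id3 made up 0.257% to 4.33%. The KO water 1 library had an Id3 share of 10.99%, within the WT range. The sum itself was 218 to 475 CPM per kb in WT, 51.7 to 90.9 in these 6 Smad4 KO libraries and 314 in KO water 1.

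**Figure D1:**
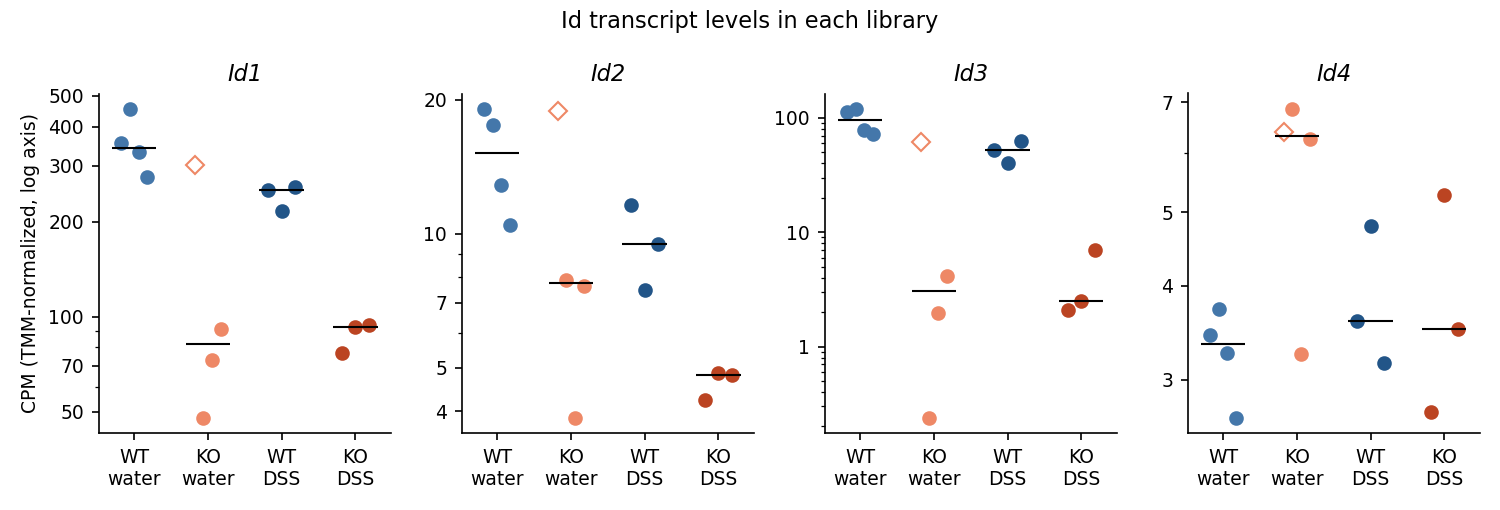
Level of each Id gene in the 14 libraries, as TMM-scaled CPM on a log axis that differs between panels. Each point is 1 library, lines are group medians, and the open diamond is the library labelled KO water 1. Id1 and Id3 of that library lie near the WT points, while the other KO points of both genes lie below all WT points.

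**Figure D2:**
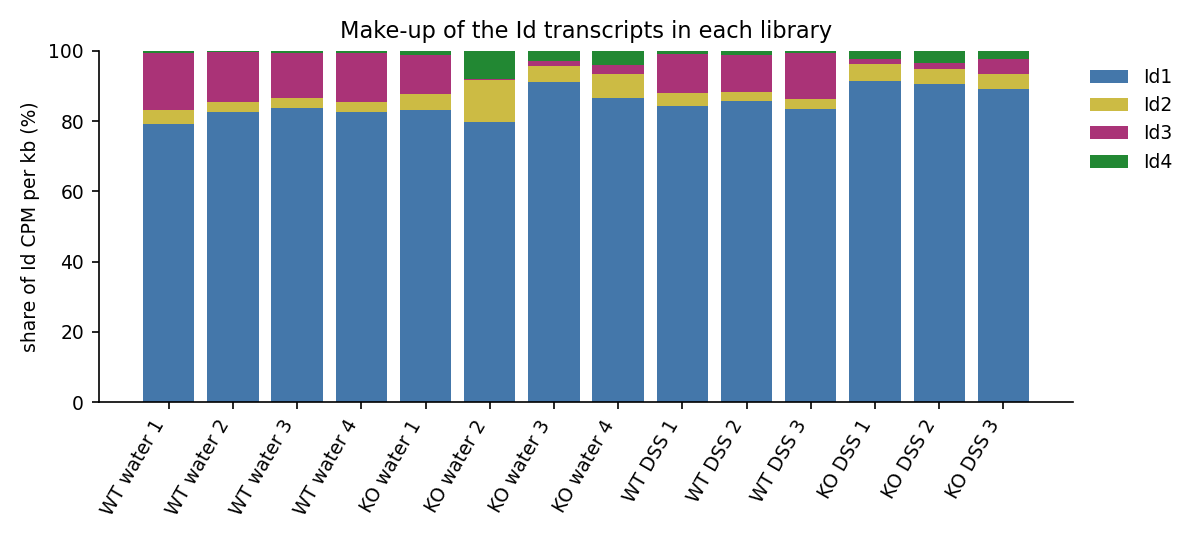
Share of each Id gene in the summed Id level per kilobase (%), with 1 bar per library. The Id3 part is 10.3% to 16.5% in WT bars and at most 4.33% in KO bars other than KO water 1.

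The first comparison asked how Id transcripts differed with loss of Smad4 in mice challenged with DSS. Id1 was at 252, 216 and 258 CPM in WT DSS 1 to 3 and at 76.6, 92.7 and 94.0 CPM in KO DSS 1 to 3. Every Smad4 KO library was below every WT library. Group means were 242 ± 22.4 and 87.8 ± 9.71 CPM (SD, n = 3 each), a log2 fold change of -1.46 ± 0.11 (SE, edgeR adjusted p = 0.000411), and the 95% interval of the KO level was 30.6% to 43.3% of WT. Among the 14241 genes tested, Id1 had rank 2 by p.

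Id3, the member closest to Id1 in its response to BMP, was at 52.1, 40.2 and 62.7 CPM in WT after DSS and at 2.09, 2.51 and 7.05 CPM in Smad4 KO. The groups were far apart, and KO DSS 3 was the highest of its group. The means were 51.7 ± 11.2 and 3.89 ± 2.75 CPM (SD, n = 3 each), with a log2 fold change of -3.73 ± 0.49 (SE, edgeR adjusted p = 0.0418). Only 2 of the 14241 genes had a lower log2 fold change. The KO level was 7.56% of WT, with a 95% interval of 3.24% to 17.6%.

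Id2, which is also induced by pathways other than BMP, had 11.6, 7.49 and 9.47 CPM in WT after DSS and 4.24, 4.87 and 4.82 CPM in Smad4 KO. Again no KO library reached the lowest WT library. The KO level was 49.0% of WT (95% interval 36.0% to 66.8%, log2 fold change -1.03 ± 0.20 (SE), edgeR adjusted p = 0.0401). Id4, the member least tied to BMP in the gut, was at 3.59, 4.80 and 3.16 CPM in WT and 2.72, 5.27 and 3.50 CPM in KO, and the groups overlapped. Its KO level was 99.97% of WT, and the 95% interval of 64.3% to 155% leaves room for a moderate change in either direction.

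Thus 3 of the 4 members were called lower in Smad4 KO than in WT, both given DSS. In this comparison 0.625% of the tested genes (89 of 14241) were called lower and 1.09% were called in either direction. The ranges of the same 3 members did not overlap between the groups, as was so with a lower KO range for 11.7% of the genes tested. The call on Id1 held with each of the 6 libraries left out in turn, with edgeR adjusted p-values of 0.000697 to 0.00494. The calls on Id2 and Id3 were each lost on leaving out any of 5 of the 6 libraries: Id2 was called only without WT DSS 2 (edgeR adjusted p = 0.0386, otherwise 0.0866 to 0.157), and Id3 only without KO DSS 3 (edgeR adjusted p = 9.12e-05, otherwise 0.0838 to 0.133). The log2 fold change stayed between -1.17 and -0.87 for Id2 and between -4.48 and -3.43 for Id3. One model of all 14 libraries, in which the library labelled KO water 1 adds to the spread, called none of the 4 (edgeR adjusted p = 0.84 for Id1, 0.0132% of 15127 genes called), and the same model without that library called only Id1 of the 4 (edgeR adjusted p = 0.0201 for Id1, 0.074 for Id3 and 0.485 for Id2, with 0.0464% of 15074 genes called).

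Other measures moved with this comparison. All 3 KO libraries and WT DSS 1 and 2 carry the letter D in their names, whose meaning is not given, and WT DSS 3 does not. Within the D libraries the log2 fold change was -1.41 for Id1 (edgeR adjusted p = 0.00321), -1.03 for Id2 (0.0979) and -3.56 for Id3 (0.0978). Surface colonocyte markers, from the part of the crypt axis where BMP signaling is strongest, summed to 4730 to 5184 CPM in WT and 3648 to 4360 CPM in KO, and 3 of 6 (Krt20, Car4 and Aqp8) were called lower. Crypt base markers summed to 125 to 175 CPM in WT and 198 to 212 CPM in KO, and 1 of 5, Smoc2, was called higher. Ascl2 (means of 5.68 CPM in WT and 3.22 CPM in KO) and Axin2 (26.4 and 21.3 CPM) went the other way. The median log2 fold change of the 5 was 0.14. Of the fibroblast markers (Col1a1, Col1a2, Col3a1, Dcn, Lum and Pdgfra), 4 of 6 could be tested and 3 were called higher. They summed to 0.276 to 1.89 CPM in WT and 7.21 to 12.97 CPM in KO, with Lum at 0 in WT after DSS. The paper reports higher Col1a1, Col1a2 and Col3a1 transcripts in the KO epithelium. It takes barely detectable Pdgfra as a sign that pericryptal fibroblasts did not contaminate the RNA. In 1 model of all 14 libraries 0 surface colonocyte, 1 crypt base (Smoc2) and 0 fibroblast markers were called. The part of these cell types in the Id difference was not tested, and in bulk RNA fewer cells of a type cannot be told apart from less RNA per cell.

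Mice on water were compared to see whether the difference was present without injury. Id1 was at 354, 455, 331 and 277 CPM in WT water 1 to 4 and at 303, 47.9, 72.7 and 91.3 CPM in KO water 1 to 4. The library labelled KO water 1 lay inside the WT range and the other 3 lay far below it. Over all 8 libraries the means were 354 ± 74.4 and 129 ± 117 CPM (SD, n = 4 each), and the log2 fold change of -1.46 ± 0.51 (SE) did not pass the test (edgeR adjusted p = 0.17). Without KO water 1 the KO mean was 70.6 ± 21.8 CPM (SD, n = 3), the KO level was 20.0% of WT (95% interval 13.4% to 29.7%), and Id1 was called lower (log2 fold change -2.32 ± 0.26 (SE), edgeR adjusted p = 0.0067).

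Id3 on water was at 114, 120, 78.3 and 72.3 CPM in WT and at 61.8, 0.238, 1.97 and 4.12 CPM in KO. KO water 1 was just under the lowest WT library, and KO water 2 had only 4 counts. With all 8 libraries the log2 fold change was -2.49 ± 1.38 (SE, edgeR adjusted p = 0.346). Without KO water 1, Id3 was called lower, at 2.22% of WT (95% interval 0.788% to 6.25%, log2 fold change -5.49 ± 0.66 (SE), edgeR adjusted p = 0.0209). It then had the third lowest log2 fold change of 14383 genes.

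Id2 on water was at 19.1, 17.5, 12.9 and 10.5 CPM in WT and 18.9, 7.87, 3.87 and 7.64 CPM in KO. KO water 1 was again with the WT libraries, and the other 3 were below them. Neither with it (KO at 63.6% of WT, edgeR adjusted p = 0.361) nor without it (42.9% of WT, 95% interval 25.9% to 71.0%, edgeR adjusted p = 0.15) did Id2 pass the test. Id4 was at 3.44, 3.73, 3.26 and 2.67 CPM in WT and 6.38, 6.85, 3.25 and 6.25 CPM in KO, with KO water 3 inside the WT range and the other 3 above it. Its log2 fold change of 0.79 ± 0.33 (SE) did not pass the test (edgeR adjusted p = 0.199, and 0.313 without KO water 1).

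So none of the 4 members was called on water over all 8 libraries, where 0.00686% of genes (1 of 14568) were called, and 2 of 4 were called lower without KO water 1, where 0.111% (16 of 14383) were called lower and 0.118% in either direction. The ranges of Id1, Id2 and Id3 then did not overlap between the genotypes, which was so with a lower KO range for 7.87% of genes. A model of all groups without KO water 1 also called Id2 (edgeR adjusted p = 6.13e-05 for Id1, 0.00244 for Id3 and 0.0235 for Id2, with 7.97% of 15074 genes called). Water libraries of both genotypes shared the name letters Z (WT water 3, KO water 1 and KO water 2) and MP (WT water 4 and KO water 4). Between WT water 3 and KO water 2, Id1 was at 331 and 47.9 CPM, Id3 at 78.3 and 0.238 CPM, Id2 at 12.9 and 7.87 CPM and Id4 at 3.26 and 6.85 CPM. Between the MP libraries, Id1 was at 277 and 91.3 CPM, Id3 at 72.3 and 4.12 CPM, Id2 at 10.5 and 7.64 CPM and Id4 at 2.67 and 6.25 CPM. In both pairs Id1, Id2 and Id3 were lower and Id4 was higher in the KO library. KO water 1, the other Z library, had 303 CPM of Id1, 61.8 of Id3, 18.9 of Id2 and 6.38 of Id4, so that against WT water 3 Id2 was higher and Id1 close. Pairs of 1 library each allow no test. Without KO water 1, fibroblast markers summed to 0.896 to 4.06 CPM in WT and 2.98 to 24.8 CPM in KO, and their part was not tested.

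**Figure D3:**
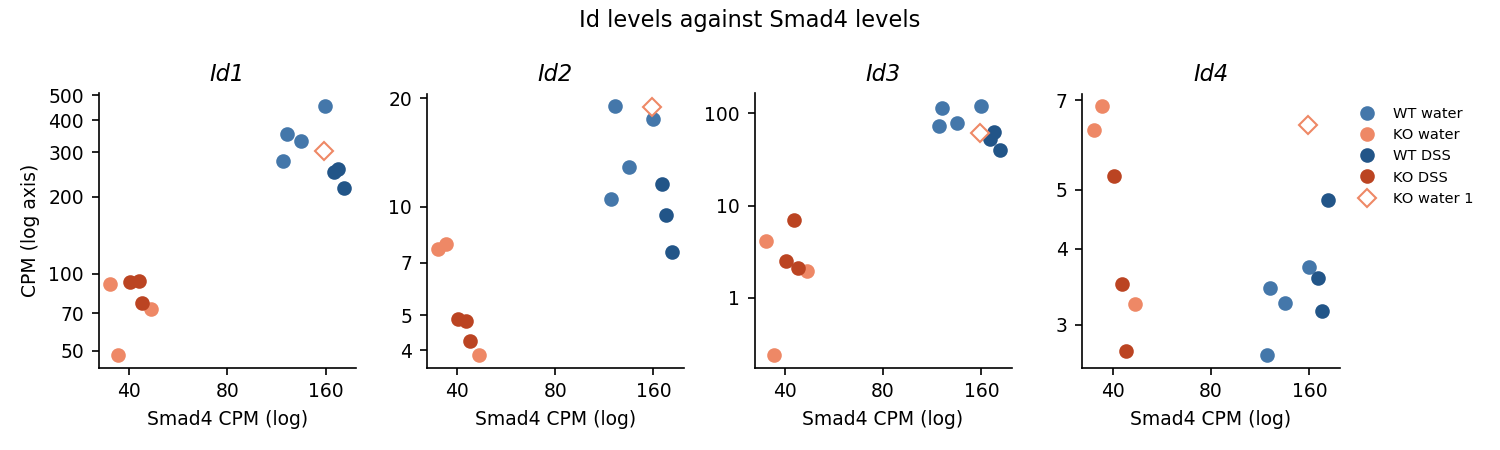
Level of each Id gene against the level of Smad4 in the same library, both as CPM on log axes, with 1 point per library colored by group. The library labelled KO water 1 (open diamond) lies at 158 CPM of Smad4 among the WT points, and the 6 other KO libraries lie between 35.1 and 46.8 CPM of Smad4, with Id3 at 7.05 CPM or less.

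The response to DSS was first taken within WT. Id1 was lower in WT DSS 1 to 3 (252, 216 and 258 CPM) than in any WT library on water, where the lowest had 277 CPM. Its level after DSS was 68.2% of that on water (95% interval 52.5% to 88.6%), and the log2 fold change of -0.55 ± 0.17 (SE) did not pass the test (edgeR adjusted p = 0.104). Id3 was likewise lower in every DSS library, at 53.6% of the water level (95% interval 38.4% to 74.8%, log2 fold change -0.90 ± 0.22 (SE), edgeR adjusted p = 0.083). Id2 (63.0%, edgeR adjusted p = 0.139) and Id4 (116%, edgeR adjusted p = 0.658) overlapped between the treatments. Smad4 itself was at 131% of the water level after DSS in WT (edgeR adjusted p = 0.113).

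None of the 4 members, and 0% of the 14407 genes tested, passed in this comparison with edgeR, although 3620 genes had an unadjusted p under 0.05, and DESeq2 called 1731 (12.0%). DESeq2 called Id1 (adjusted p = 0.0278) and Id3 (adjusted p = 0.00448) lower but not Id2 (0.0712). A lower DSS range without overlap, as for Id1 and Id3, was found for 11.9% of genes. Within the D libraries, WT water 1 and 2 had 354 and 455 CPM of Id1, 114 and 120 CPM of Id3, and 19.1 and 17.5 CPM of Id2, and WT DSS 1 and 2 had 252 and 216, 52.1 and 40.2, and 11.6 and 7.49 CPM. In those 4 libraries all 3 genes were lower after DSS. The mitochondrial share was 6.42% to 32.8% in WT on water and 4.54% to 6.87% after DSS. With this share as a covariate in a model of all 14 libraries, the log2 fold changes were -0.91 for Id1 and -1.65 for Id3 (edgeR adjusted p = 0.856 and 0.912). The same model without the covariate gave -0.55 and -0.90 (edgeR adjusted p = 0.523 and 0.697).

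Within WT, libraries took the same order for Id1 and Id3. On water the order from high to low was WT water 2, 1, 3 and 4 for both genes, and after DSS it was WT DSS 3, 1 and 2. In these orders the mitochondrial share rose throughout on water (6.42%, 8.23%, 30.6% and 32.8%) but not after DSS (4.78%, 4.54% and 6.87%). Its part in the shared order was not tested. No correlation with Id1 or Id3 is given, since their levels fall apart by treatment into groups of 4 and 3 libraries. Id2 and Id4, which overlap between the treatments, gave Pearson r = -0.23 and Spearman rho = 0.036 over the 7 WT libraries (exact permutation p = 0.656 and 0.963, the same after adjustment over 6 pairs of members), and r = 0.67 without the 2 libraries farthest from the median of Id2.

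DSS in the Smad4 KO gave no call on any of the 4 members, with 0.00694% of 14409 genes called, and 0.00703% of 14215 without KO water 1. The direction for Id1 and Id3 depended on the library labelled KO water 1. With it, the level after DSS was 68.2% of water for Id1 and 22.8% for Id3, and without it 124% (95% interval 85.7% to 179%) and 183% (50.7% to 658%). For Id2 the values were 48.5% and 71.8%, and for Id4 67.3% and 70.1%. The lowest edgeR adjusted p of these values was 0.752.

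Whether the DSS response differed with the genotype was tested as an interaction over all 14 libraries, where 0.00661% of 15127 genes were called. None of the 4 members passed (log2 difference -0.38 for Id2, -1.24 for Id3 and -0.79 for Id4, edgeR adjusted p of 0.677 to 0.999 over the 4). With KO water 1 left out, 0.00663% of 15074 genes and again none of the 4 were called. The log2 difference was then 0.86 ± 0.30 for Id1 (SE, edgeR adjusted p = 0.574), 0.19 for Id2, 1.76 ± 0.82 for Id3 (SE, edgeR adjusted p = 0.593) and -0.73 for Id4. A smaller fall after DSS in the Smad4 KO was therefore neither shown nor bounded tightly by these libraries.

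**Figure D4:**
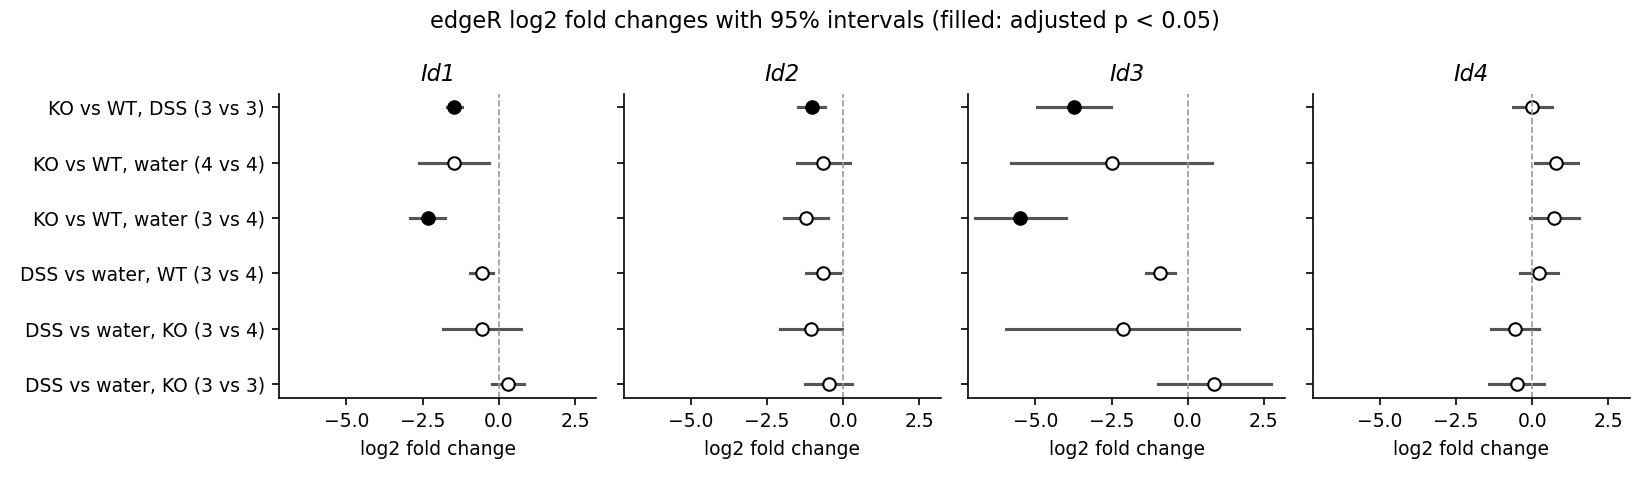
edgeR log2 fold change of each Id gene (points) with its 95% interval (lines) in the comparisons between 2 groups. Filled points have an adjusted p below 0.05, and the KO vs WT water row of 3 vs 4 and the DSS vs water KO row of 3 vs 3 leave out KO water 1. Filled points are Id1, Id2 and Id3 in KO against WT after DSS, and Id1 and Id3 on water without that library.

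Ordered by group mean, Id1 and Id3 ran from WT on water through WT after DSS to Smad4 KO on water and Smad4 KO after DSS. The last 2 changed places when KO water 1 was left out, with Id1 at 87.8 CPM after DSS and 70.6 CPM on water, and Id3 at 3.89 and 2.11 CPM. Id2 ran from WT on water (15.0 CPM) through Smad4 KO on water (9.56) and WT after DSS (9.52) to Smad4 KO after DSS (4.64), and WT after DSS moved to the second place when KO water 1 was left out, with Smad4 KO on water at 6.46 CPM. Id4 ran from Smad4 KO on water (5.68 CPM, or 5.45 without KO water 1) through WT after DSS (3.85) and Smad4 KO after DSS (3.83) to WT on water (3.27). Among neighbors in the order without KO water 1, ranges of libraries were apart between WT on water and WT after DSS and between WT after DSS and Smad4 KO after DSS, for Id1 and for Id3. All other neighbors, and every pair of neighbors of Id2 and Id4, overlapped. An exact two-sided permutation test cannot settle such pairs. It allows no p below 0.1 for 3 against 3 libraries and none below 0.0571 for 3 against 4, before adjustment over 12 pairs (adjusted p of at least 0.274).

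Since the members share each library, the make-up of the family was also compared as a ratio of counts to Id1. Id3 had 18.6% to 32.1% as many counts as Id1 in the 7 WT libraries, 0.498% to 7.51% in 6 Smad4 KO libraries and 20.4% in KO water 1. The 6 KO ratios were below every WT ratio. The mean log2 ratio, taken within water and within DSS, was lower by 2.68 log2 units in KO (-2.68, exact two-sided permutation of genotype labels within treatment, p = 0.00143, the smallest that these labels allow, and adjusted p = 0.00214 over 3 ratios). Id3 thus fell further than Id1.

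Id4 had 0.819% to 2.22% as many counts as Id1 in WT and 2.11% to 14.3% in KO. Its log2 ratio was higher by 1.99 in KO (exact permutation p = 0.00143, adjusted 0.00214), with 6 of 7 KO libraries above all WT libraries. Id2 had 3.46% to 5.39% in WT and 5.13% to 16.4% in KO, and its log2 ratio was higher by 0.72 (exact permutation p = 0.00286, adjusted 0.00286), with 4 of 7 KO libraries above all WT libraries. Leaving out KO water 1 gave differences of -3.10 for Id3, 2.22 for Id4 and 0.78 for Id2, and the exact permutation p-values were unchanged to 3 digits. Id1, to which the counts are related, was itself lower in KO, so that a higher ratio does not show a change in Id4 or Id2. These ratio tests were added after the values had been seen.

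Other targets and feedback genes of the BMP pathway were read from a list of 9. After DSS, 4 of the 9 had enough counts to test and 0 of 4 were called, where 1.09% of the 14241 genes tested were called. The median log2 fold change of the 4 was -0.64 against 0.0044 over all genes. Smad6, an inhibitory SMAD that BMP signaling induces, was at 16.6 ± 3.07 CPM in WT and 8.06 ± 3.00 CPM in KO (SD, n = 3 each, log2 fold change -1.03, edgeR adjusted p = 0.12). Smad7, the other inhibitory SMAD, had -0.59 (edgeR adjusted p = 0.066), and Atoh8, a bHLH factor downstream of BMP in several tissues, -0.70 (edgeR adjusted p = 0.46). Bambi, a pseudoreceptor that dampens BMP and TGF-β signals, had -0.10 (edgeR adjusted p = 0.87).

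On water without KO water 1, Smad6 was called lower (8.25 ± 1.31 CPM, n = 3, against 25.7 ± 3.6 CPM in WT, n = 4, log2 fold change -1.64, edgeR adjusted p = 0.028). The other 3 were not called, with log2 fold changes of -2.29 for Atoh8 (edgeR adjusted p = 0.064), -0.74 for Smad7 and -0.03 for Bambi. Over all 8 water libraries 0 of 5 tested genes of the list were called in the fit of 2 groups, and in 1 model of all 14 libraries, where 8.9% of 15127 genes were called, Smad6 (-1.15, edgeR adjusted p = 0.0387) and Atoh8 (-1.66, edgeR adjusted p = 0.0351) were called lower. Smad9, the third BMP-responsive receptor SMAD, had at most 14 counts in a library. Hey1, Msx1, Msx2 and Nog, further BMP targets or antagonists, had at most 11, 5, 0 and 2 counts and were not tested.

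Among 14 BMP ligands, receptors and SMADs, 11 were tested after DSS. Smad4 was called lower and Bmp3, a ligand that antagonizes other BMPs, was called higher (13.1 ± 1.98 CPM in WT and 34.5 ± 4.74 CPM in KO, SD, n = 3 each, log2 fold change 1.40, edgeR adjusted p = 0.0016), where 0.463% of all genes were called higher. The other 9, which include Bmp2, Bmpr1a, Bmpr2, Smad1 and Smad5, were not called. On water without KO water 1, where 0.118% of 14383 genes were called, 1 of 11, Smad4, was called. Bmp3 had a log2 fold change of 1.65 there (edgeR adjusted p = 0.11). The model of all 14 libraries called Bmp3 higher on water (1.37, edgeR adjusted p = 0.0342).

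For the partners of Id proteins, 0 of 3 E protein genes (Tcf3, Tcf4 and Tcf12) and 0 of 7 tissue bHLH factor genes were called after DSS. In that fit 1.09% of the 14241 genes tested were called, so that a count of 0 is not particular to these lists. The medians were 0.25 and 0.02 log2 units. Of 4 tested genes that E proteins are known to activate or Id1 to repress, Cdkn1a, the cell cycle inhibitor p21, was called lower (154 ± 18.3 CPM in WT and 61.6 ± 5.38 CPM in KO, SD, n = 3 each, log2 fold change -1.31, edgeR adjusted p = 0.00068). Cdkn1c, Cdkn2b and Thbs1 were not called. The median of the 4 was -0.73 log2 units, against 0.0044 over all genes. A link to Id levels was not tested. In 1 model of all 14 libraries neither Cdkn1a (edgeR adjusted p = 0.241) nor Bmp3 (0.615) passed after DSS. On water without KO water 1, where 0.118% of 14383 genes were called, 0 genes of these 3 lists were called. Cdkn1a had a log2 fold change of -1.05 there (edgeR adjusted p = 0.15). The model of all 14 libraries, which called 8.9% of 15127 genes on water, called Tcf4 (0.54, edgeR adjusted p = 0.0453) and Tcf12 (0.64, 0.0417) higher there. None of the genes of any of the 5 lists was called in WT after DSS against water, where edgeR called 0% of the 14407 genes tested.

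**Figure D5:**
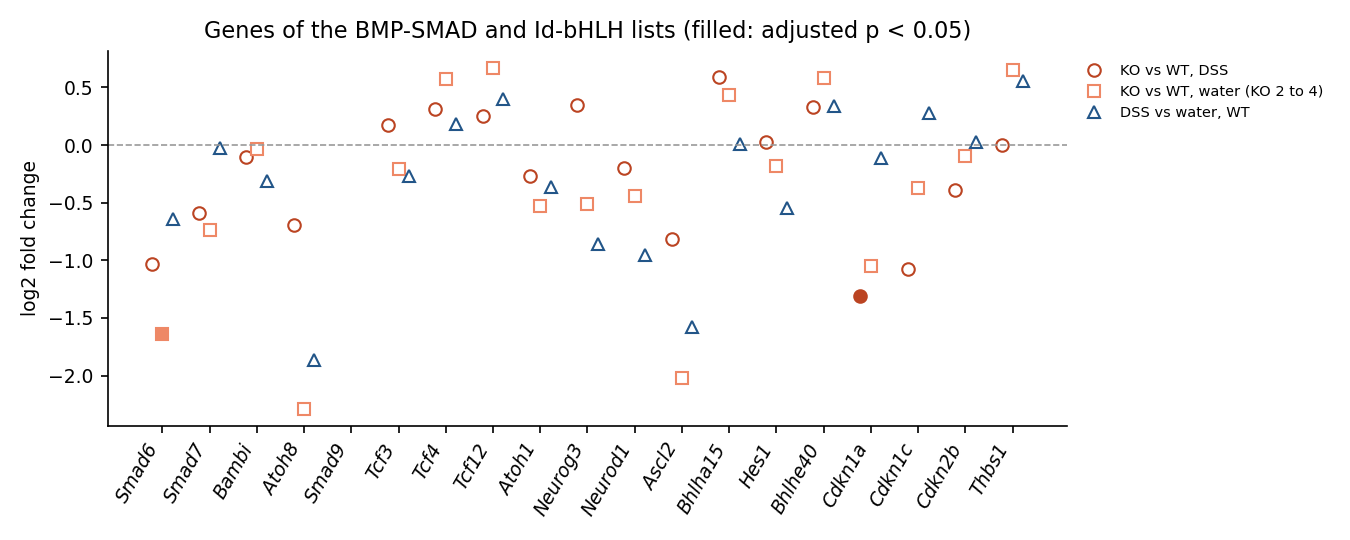
edgeR log2 fold change of genes in the BMP feedback list, the E protein and bHLH lists and the list of E protein or Id1 targets, in 3 comparisons. Filled symbols have an adjusted p below 0.05, which here are Cdkn1a after DSS and Smad6 on water without KO water 1, and Smad9 had too few counts to be tested in these comparisons.

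Genes whose level followed each member most closely were sought over the 14 libraries among 11566 genes with a mean of at least 50 counts, by Pearson's r of log2(CPM + 1). The libraries share genotype, treatment and preparation, so that r is a description. Id1 was most like Id3 (r = 0.990), followed by Tnip1, an inhibitor of NF-κB signaling (0.975), Tmem143 (0.966), Selenbp1, a selenium-binding protein of differentiated enterocytes (0.954), and Sphk2, a sphingosine kinase (0.937). Id3 was most like Id1, then Selenbp1 (0.976), Tmem143 (0.960), Tnip1 (0.947) and Cdkn1a (0.930). For Selenbp1 the means were 908 CPM in WT and 341 CPM in KO (254 without KO water 1) on water, and 697 and 315 CPM after DSS.

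Id2 had other neighbors. It was most like Ascl2, a bHLH factor of crypt base stem cells (r = 0.929), Cpm (0.906), Hr (0.904), Acer1 (0.901) and Smad6 (0.900), and its r with Id1 was 0.836. Ascl2 was at 16.9 CPM in WT and 6.81 CPM in KO (4.20 without KO water 1) on water, and 5.68 and 3.22 CPM after DSS. Id4 was most like Lbh (0.840), Ptpn2 (0.834), Rbm34 (0.801), Arf6 (0.800) and Tspyl1 (0.797), and its r with Id1 was -0.31. Without KO water 1, 5 of the 5 genes named for Id1 were again among its closest 5, 4 of 5 for Id3, and 3 of 5 each for Id2 and Id4.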

How the data were processed

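RNA-seq gene counts of 14 libraries of mouse colon epithelium were used. Per the labels and methods, the authors aligned reads to mm9 with HISAT2 and counted them per gene with featureCounts. The table used here holds whole-number counts with no normalization, while the data statement of the paper names normalized transcript counts. The table was checked and holds 37680 genes, 14001 of them without a count. Positions came from GENCODE M1.

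Libraries were grouped by their labels. TMM factors and quasi-likelihood tests (robust) came from edgeR 4.0.16 in R 4.3.3, for genes that reached 10 counts in 3 or more libraries of a fit, with Benjamini-Hochberg adjustment over all genes tested and a threshold of 0.05. Each fit held only the 2 groups compared, and the interaction used all 14 libraries. The methods of the paper name pairwise comparisons but not which libraries each fit held. Standard errors were derived from the F statistic. Depth was 12882827 to 26087231 counts, and Id4 and low Id3 counts limit precision. Exact permutation tests and ratios used SciPy 1.17.1. Levels per kilobase used the union of annotated exons.

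Alternatives were 1 model of all libraries, DESeq2 1.42.0, its size factors in edgeR, no filter on counts, a filter of at least 50 counts, a replicate block, the mitochondrial share as a covariate, the D libraries alone, the name prefix as a block, and each library left out. The covariate and the prefix block were fitted in the model of all 14 libraries, and the replicate block on the numbers both groups share. The tests of ratios to Id1 and the prefix block were added after seeing the data. Planned correlations over the WT libraries are not given for pairs with Id1 or Id3, whose treatment groups do not overlap. Scripts were tested on simulated data.

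The members, gene lists and tests were chosen with earlier results of these data known. Genes named are the 4 members, Smad4, list genes that were called or belong to the BMP feedback list, and the 5 genes most like each member, and a few further list genes are named to say what a list holds. Pathway lists held BMP feedback genes, BMP ligands, receptors and SMADs, E proteins, tissue bHLH factors, and genes that E proteins activate or Id1 represses. Markers of epithelium, surface colonocytes, crypt base, endothelium, fibroblasts, smooth muscle, glia, lymphoid and myeloid cells were summed, the last 4 to 11.8 to 22.0, 0.523 to 5.45, 5.78 to 31.4 and 4.38 to 14.4 CPM over all libraries.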

Additional observations from a re-analysis of the deposited data

Results flagged for a closer look

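Samples far from the others were sought with Dixon's ratio, the gap of the highest or lowest library to its nearest neighbor divided by the group's range, in groups of 4, against Dixon's 95% critical value. Chance passes this for about 1 in 20 groups, and 4 of the 10 groups tested passed, all of them Smad4 KO on water. The library labelled KO water replicate 1 stood apart as the highest in Id1 (302.7 CPM, ratio 0.83), in Id3 (61.8 CPM, ratio 0.937) and in Smad4 (158 CPM, ratio 0.905). KO water replicate 3 stood apart as the lowest in Id4 (3.25 CPM, ratio 0.834). The cause was not tested.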

How the results depend on the processing

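In Smad4 KO against WT after DSS, edgeR called 155 genes with the 2 groups alone, 2 with all 14 libraries in 1 model, 7 in that model without KO water replicate 1, 69 with the D libraries alone, 502 with no filter on low counts, and DESeq2 called 492. In the model of all 14 libraries, which alone gave 2, adding the mitochondrial share gave 2 and adding the prefix block 1. Where the call was lost, Id1 had log2 fold changes of -1.46 (all 14), -1.48 (mitochondrial share) and -1.41 (prefix block), with edgeR adjusted p of 0.653 to 0.84. Id2 had -1.03 (all 14, 13 libraries and D alone), -1.05 (mitochondrial share) and -1.04 (prefix block), with edgeR adjusted p of 0.0979 to 0.999. Id3 had -3.73 (all 14 and 13 libraries), -3.74 (no filter), -3.75 (mitochondrial share), -3.56 (D alone) and -3.57 (prefix block), with edgeR adjusted p of 0.074 to 0.999. DESeq2 called Id1, Id2 and Id3 (adjusted p = 1.56e-27, 0.000939 and 2.68e-08).

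On water, 1 gene was called in the 2-group fit, 1347 with all 14 libraries, 1202 with 13, 796 by DESeq2, and 54 with no filter. Against the 1347 with all 14 libraries, adding the mitochondrial share gave 62 and adding the prefix block 2061. With 13 libraries Id1 (-2.33), Id2 (-1.23) and Id3 (-5.49) were called. For DSS against water in WT the count went from 0 to 2 with 13 libraries, 1731 by DESeq2 and 253 with no filter, and DESeq2 called Id1 (-0.55) and Id3 (-0.90). For DSS against water in KO it went from 1 to 10 with all 14, 6 with 13, 70 by DESeq2, and 10 with no filter, and to 9 with all 14 and the mitochondrial share, and with 13 libraries the log2 fold change turned to 0.31 for Id1 and 0.86 for Id3. The interaction went from 1 gene to 8 by DESeq2 and 2 with no filter.

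Same-numbered libraries did not deviate together (correlations of -0.095 to 0.063, and 0.364 for water replicate 4, whose libraries share the prefix MP), so that the numbers do not pair them. With the replicate block the counts of genes called were 124 after DSS and 623 on water. For DSS against water the block also leaves out water replicate 4, which has no DSS partner, and gave 104 genes in WT (87 without that library and with no block) and 23 in KO (1). The block gave Id2 after DSS a log2 fold change of -1.01 (edgeR adjusted p = 0.0807), Id3 on water -4.37 (edgeR adjusted p = 0.20) and the Id3 interaction -0.27 (edgeR adjusted p = 0.968), and with the loss of that library Id3 in DSS against water in KO was 0.033 (edgeR adjusted p = 0.997). It changed no call on a member other than that of Id2 after DSS.

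With single libraries left out, the genes called ranged from 47 to 123 after DSS (47 without KO DSS replicate 3), from 1 to 1946 on water (1946 without KO water replicate 4, and 17 without KO water replicate 1), from 0 to 793 for DSS in WT (793 without WT water replicate 2, and 87 without WT water replicate 4), from 1 to 3 for DSS in KO and from 1 to 5 for the interaction. The log2 fold changes ranged after DSS from -1.17 to -0.87 for Id2 and from -4.48 to -3.43 for Id3. On water they ranged from -2.32 to -1.19 for Id1, from -1.22 to -0.39 for Id2 and from -5.49 to -2.09 for Id3. For DSS in KO they ranged from -0.83 to 0.31 for Id1 and from -2.89 to 0.87 for Id3, and for the interaction from -0.27 to 0.86 for Id1, from -0.64 to 0.19 for Id2 and from -1.995 to 1.76 for Id3. Values near 0 (Id4 after DSS and the Id1 interaction) changed sign without other libraries too, staying between -0.30 and 0.197 for Id4. Without KO water replicate 1 the log2 values were 0.31 and 0.87 for Id1 and Id3 in KO and 0.86, 0.19 and 1.76 for Id1, Id2 and Id3 in the interaction. Of the 5 genes most like Id2 and Id4, 3 each were shared without that library. The causes were not tested. Counts of 25 to 145 limit Id4, and 4 counts limit the lowest Id3 value.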
